A study of Homo sapiens with 6 samples.

Results

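The genes described here are 34 genes of the endoplasmic reticulum (ER) and its unfolded protein response, out of 58825 genes in the deposited tables. These genes were chosen by name, with earlier results of these data known. They comprise 11 ER folding factors, 6 disulphide enzymes, 5 stress sensors and transcription factors, 8 genes of ER-associated degradation (ERAD) and 4 genes of translocation, vesicle coat and ER membrane. All 34 symbols matched 1 gene each, and all 34 had enough counts to be tested. RNA-seq was performed on NCI-H460, a human lung cancer cell line, infected with lentivirus for an shRNA against GFP (NC-shRNA, 3 libraries) or an shRNA against PRMT5 (PRMT5-shRNA, 3 libraries). PRMT5 is an arginine methyltransferase that dimethylates histones and other proteins. Per the labels both groups were infected with lentivirus, and the methods give puromycin selection for the knockdown cells without saying whether the control cells were selected as well. The labels do not name which of the study's PRMT5 hairpins was sequenced, and no second hairpin group was measured.

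The ER folds secreted and membrane proteins. When unfolded proteins accumulate there, the sensors IRE1 (gene ERN1), PERK (EIF2AK3) and ATF6 are released from the chaperone BiP (HSPA5). ATF6 and the spliced form of XBP1 then raise chaperone and ERAD genes, while PERK slows translation and raises ATF4. ATF4 and its target DDIT3 (CHOP) are also raised by other kinases during amino acid shortage and similar stresses. The comparison therefore asked whether the ER genes differed along with the ATF4 targets in PRMT5-shRNA cells.

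Promoter sites are shown first, because the ER stress element (ERSE) is the known binding site through which ATF6, together with NF-Y, raises chaperone genes. The ERSE was searched as CCAAT, 9 bases of any kind and CCACG. A shorter form, ERSE-II, was searched as ATTGG, 1 base of any kind and CCACG. Promoter windows, from 250 bases before to 50 bases after each start site, were taken from RefSeq (GRCh38.p14) and were found for 30 of the 34 genes. Capitals mark the fixed letters of the motif, and each sequence of 30 bases is written 5′ to 3′ on the strand that carries the motif.
HSPA5, ERSE, minus strand, chr9:125241385-125241414: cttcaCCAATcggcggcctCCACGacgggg
HSP90B1, ERSE, plus strand, chr12:103930211-103930240: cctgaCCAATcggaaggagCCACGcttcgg
CALR, ERSE, minus strand, chr19:12938379-12938408: caccgaCCAATgatggtcgaCCACGcgtgg
CRELD2, ERSE, minus strand, chr22:49918549-49918578: tatggcCCAATccgagttcgCCACGagagg
XBP1, ERSE, minus strand, chr22:28800597-28800626: gctggCCAATcgcggagggCCACGaccgta
SDF2L1, ERSE-II, minus strand, chr22:21642105-21642134: gagggttttgATTGGtCCACGcttccgagg
HYOU1, ERSE-II, plus strand, chr11:119057264-119057293: gcgcgtactcATTGGaCCACGtcccaggcc
HERPUD1, ERSE-II, plus strand, chr16:56932016-56932045: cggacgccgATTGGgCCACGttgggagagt
HERPUD1 was the single member whose window also held the exact C/EBP-ATF composite site TTGCATCA, the kind of site that ATF4 binds, on the plus strand at chr16:56931955-56931984: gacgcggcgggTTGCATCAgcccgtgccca

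An exact ERSE on either strand was present in 8 of the 30 members with a window (26.7%), namely HSPA5, HSP90B1, CRELD2, CALR, CANX, PDIA6, ERO1B and XBP1, against 0.0769% of all 35116 windows. ERSE-II was present in HYOU1, SDF2L1 and HERPUD1 (10%), against 0.0541% of all windows. The XBP1 binding letters TGACGTGG were found in HYOU1 alone (3.33%), where they overlapped an ERSE-II, against 0.729% of all windows. The composite site TTGCATCA occurred in 0.866% of all windows. A match describes letters in these windows and was not measured as a bound site.

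The total estimated count per library ranged from 53531257 to 70518401. PRMT5 was at 133 ± 8.90 CPM (counts scaled to library size by TMM, SD, n = 3) in NC-shRNA and 43.2 ± 4.28 CPM (SD, n = 3) in PRMT5-shRNA cells, a log2FC (log2 fold change, PRMT5-shRNA over NC-shRNA) of -1.62 (SE 0.094, adjusted p = 0.0063 by edgeR). The summed level of 6 epithelial markers was 1750 to 1880 CPM in NC-shRNA and 1520 to 1650 CPM in PRMT5-shRNA libraries, most of it from KRT8, KRT18, KRT7 and KRT19, while EPCAM and CDH1 stood at 40 to 121 counts per library. Of markers of other cells, 7 endothelial genes summed to 9.74 to 10.9 CPM in NC-shRNA and 14.9 to 18.5 CPM in PRMT5-shRNA libraries, with VWF and KDR at 0 counts in every NC-shRNA library. The 6 fibroblast genes summed to 117 to 142 and 110 to 132 CPM, with COL1A2 at 0 throughout, and the 6 blood genes to 2.74 to 3.45 and 3.39 to 4.07 CPM, with CD3E at 0 throughout. The part of the endothelial difference in the ER results was not tested. Over all 20295 genes tested, 0.0690% had an adjusted p under 0.05 by edgeR (0.0493% higher, 0.0197% lower). An unadjusted p under 0.05 was found for 12.8% of genes, 6.54% on the higher side and 6.29% on the lower side.

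The ER genes were not higher as a group in PRMT5-shRNA cells. Of the 34 genes, 26 had a log2FC below 0, beside 48.8% of all genes tested, and the median was -0.18, beside 0.01 over all genes tested. The lowest fitted values were those of CREB3L2 (-1.14), SDF2L1 (-0.69), MANF (-0.62), DERL3 (-0.61), HSPA5 (-0.52), CALR (-0.42), CRELD2 (-0.38) and DERL2 (-0.37). DNAJB11, DNAJC3 and SYVN1 followed at -0.32. Of the folding group, HSPA5, SDF2L1, MANF, CALR and DNAJC3 were at 62.1% to 80.1% of their NC-shRNA level. The sensors ATF6 and EIF2AK3 and the transcription factor XBP1 had fitted values between -0.04 and 0.00, and the sensor ERN1 was at 0.21. By edgeR 0 of the 34 genes had an adjusted p under 0.05.
At an unadjusted p under 0.05, 14 of the 34 genes were lower (41.2%, beside 6.29% of all genes) and 0 were higher (beside 6.54%). All 14 were read from the same 6 libraries, so they are not separate observations. In 15 genes the groups did not overlap with PRMT5-shRNA lower, beside 10.7% of all genes, and in 1 gene, EDEM1, with PRMT5-shRNA higher (beside 11.0%). DESeq2, which called more genes throughout, called 4 of the 34 at an adjusted p of 0.05, all lower, beside 2.61% of all genes called by it (1.49% higher, 1.12% lower). These were HSPA5 (DESeq2 adjusted p = 0.0012), SDF2L1 (0.0067), MANF (0.0075) and DNAJC3 (0.013). In bulk RNA, fewer cells that express a gene and less RNA per cell cannot be told apart. The annotation places a second gene on the same strand within 11 of the 34 genes, among them HSP90B1, DNAJB11, DNAJC3, CALR, CANX and PDIA6, and how the authors' counting split such reads is not known here.

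**Figure D1:**
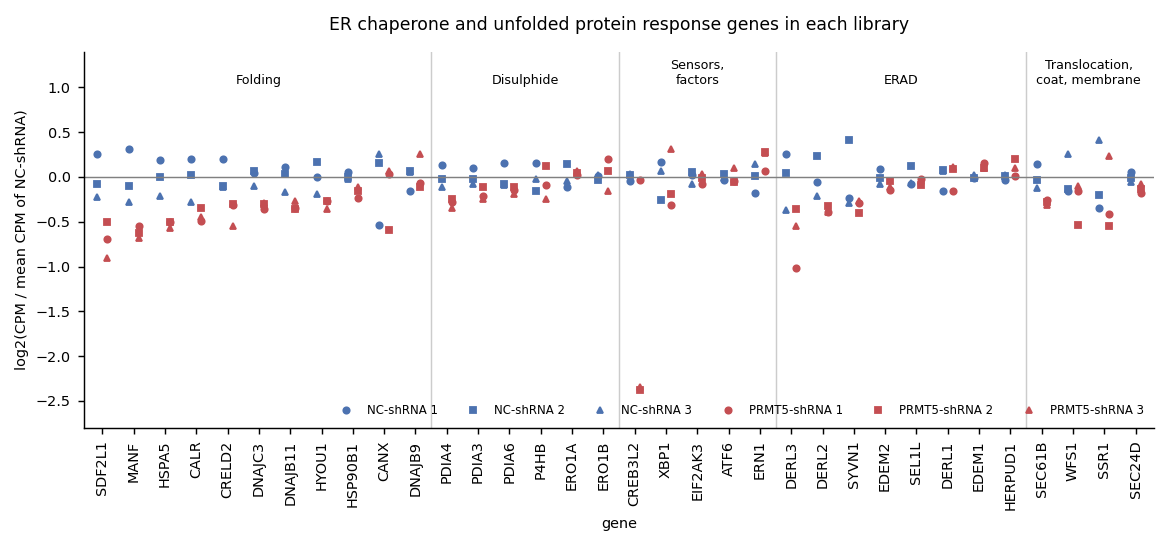
Level of each of the 34 genes in each library as log2 of its CPM over the mean CPM of the 3 NC-shRNA libraries; blue is NC-shRNA, red is PRMT5-shRNA, the marker shape gives the replicate number, and the genes are grouped by role and ordered by fitted difference. Red points sit below blue points for 9 of the 11 folding genes, while CREB3L2 holds 2 red points far below the rest.

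The folding group held most of the lower genes. Of its 11 members, 9 were lower at an unadjusted p under 0.05 (81.8%, beside 6.29% of all genes), and the median log2FC was -0.32. The groups did not overlap in those 9, with PRMT5-shRNA lower (beside 10.7% of all genes). HSPA5 (ENSG00000044574, GRCh38 chromosome 9, 125234853 to 125241330, minus strand) encodes BiP, the HSP70 chaperone of the ER that also holds the stress sensors inactive. It had 2270, 1990 and 1720 CPM in the NC-shRNA libraries and 1410, 1410 and 1340 CPM in the PRMT5-shRNA libraries. The PRMT5-shRNA libraries lay within a narrow range, and the NC-shRNA libraries were all higher but more spread, with replicate 1 highest. Its log2FC was -0.52 (SE 0.0986, edgeR unadjusted p = 0.0011, adjusted p = 0.17), and -0.42 without NC-shRNA replicate 1.
SDF2L1 (ENSG00000128228, chromosome 22, 21642261 to 21644298, plus strand), a small ER-lumen partner of the BiP cycle, had 32.2, 25.4 and 23.1 CPM in NC-shRNA and 16.7, 19.0 and 14.4 CPM in PRMT5-shRNA libraries. Its log2FC of -0.69 (SE 0.1598, adjusted p = 0.21 by edgeR) was the lowest in the folding group. MANF (ENSG00000145050, chromosome 3, 51385047 to 51389397, plus strand), a secreted factor that binds BiP, had 171, 129 and 114 CPM in NC-shRNA and 94.1, 89.8 and 85.9 CPM in PRMT5-shRNA libraries, at a log2FC of -0.62 (adjusted p = 0.21 by edgeR). For both genes NC-shRNA replicate 1 was the highest library, and the groups were apart. Without that library the log2FC was -0.54 for SDF2L1 and -0.43 for MANF.
DNAJC3 (ENSG00000102580, chromosome 13, 95677139 to 95794989, plus strand), also called P58IPK, is a BiP co-chaperone known to restrain PERK. It had 105, 107 and 95 CPM in NC-shRNA and 79.4, 82.9 and 83.2 CPM in PRMT5-shRNA libraries, a log2FC of -0.32 (SE 0.0667, adjusted p = 0.19 by edgeR). The lowest NC-shRNA library lay above the highest PRMT5-shRNA library. DNAJB11, the co-chaperone ERdj3, had the same fitted value of -0.32, with 114 to 138 CPM against 100 to 106 CPM. DNAJB9, the co-chaperone ERdj4 and a known XBP1 target, had 10.5, 12.3 and 12.2 CPM in NC-shRNA and 11.2, 10.8 and 14.0 CPM in PRMT5-shRNA libraries. The groups of DNAJB9 overlapped, and its log2FC was 0.04 with a 95% interval from -0.29 to 0.37.

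**Figure D2:**
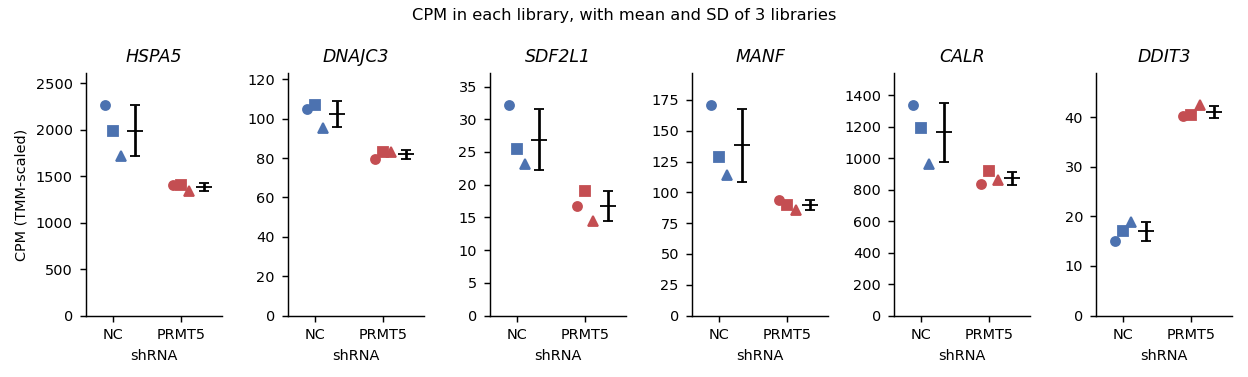
CPM (TMM-scaled, linear axis from 0) of HSPA5, DNAJC3, SDF2L1, MANF, CALR and, for comparison, the ATF4 target DDIT3 in each library, with black bars for the mean and SD of the 3 libraries of a group. In the 5 ER genes each red PRMT5-shRNA point lies below each blue NC-shRNA point, and in DDIT3 the PRMT5-shRNA libraries (40.3 to 42.5 CPM) lie above the NC-shRNA libraries (15.0 to 18.9 CPM).

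Calreticulin (CALR) and calnexin (CANX) are the lectin chaperones that hold newly made glycoproteins. CALR had 1340, 1190 and 964 CPM in NC-shRNA and 835, 921 and 859 CPM in PRMT5-shRNA libraries, a log2FC of -0.42 (SE 0.1178, adjusted p = 0.26 by edgeR). The groups of CALR did not overlap, and its log2FC was -0.31 without NC-shRNA replicate 1. CANX had 1050, 1700 and 1810 CPM in NC-shRNA and 1560, 1010 and 1590 CPM in PRMT5-shRNA libraries. NC-shRNA replicate 1 and PRMT5-shRNA replicate 2 stood about equally low, so CANX differed more within the groups than between them (log2FC -0.13, 95% interval -0.71 to 0.45). Its value ranged from -0.34 without NC-shRNA replicate 1 to 0.05 without PRMT5-shRNA replicate 2.
The remaining folding genes were also separate between the groups. CRELD2, an ER-lumen protein that is induced with MANF under ER stress, was at 76.9% of NC-shRNA (log2FC -0.38, adjusted p = 0.29 by edgeR). Its log2FC was -0.27 without NC-shRNA replicate 1. HYOU1, the large HSP70-related exchange factor for BiP, was at 81.4% (-0.30, adjusted p = 0.29 by edgeR). HSP90B1, the ER HSP90 called GRP94, was at 88.5% (-0.18, adjusted p = 0.28 by edgeR), with 1080, 1040 and 1020 CPM in NC-shRNA and 881, 932 and 960 CPM in PRMT5-shRNA libraries. Its 2 groups were separate, although its difference was the smallest of the 9.

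The disulphide group had a median log2FC of -0.11, with 2 of 6 genes lower at an unadjusted p under 0.05 (33.3%, beside 6.29% of all genes). These enzymes form and rearrange the disulphide bonds of proteins in the ER. PDIA4 had 707, 633 and 596 CPM in NC-shRNA and 530, 546 and 506 CPM in PRMT5-shRNA libraries (log2FC -0.29, SE 0.0743, adjusted p = 0.23 by edgeR). PDIA3, which works with calnexin and calreticulin, had 775 to 875 CPM against 693 to 758 CPM (-0.19, adjusted p = 0.32 by edgeR). The groups of both genes did not overlap. PDIA6, known to act on the IRE1 and PERK sensors, had 669 to 795 CPM against 623 to 659 CPM, also with no overlap, at an unadjusted p = 0.097 in edgeR's test. Its log2FC of -0.15 was -0.06 without NC-shRNA replicate 1.
P4HB, the founding protein disulphide isomerase, overlapped between the groups, with 846, 681 and 748 CPM in NC-shRNA and 711, 826 and 639 CPM in PRMT5-shRNA libraries. ERO1A and ERO1B, the oxidases that recharge these isomerases, both had a fitted log2FC near 0. ERO1A, also a known target of CHOP, was at 0.04 (95% interval -0.15 to 0.23). ERO1B was at 0.05 (95% interval -0.25 to 0.34).

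No sensor or transcription factor of the list had an unadjusted p under 0.05. ATF6, the membrane-bound factor that is cut in the Golgi, had 122, 128 and 124 CPM in NC-shRNA and 121, 120 and 134 CPM in PRMT5-shRNA libraries (95% interval of the log2FC -0.15 to 0.16). EIF2AK3, the PERK kinase, had 44.0 to 48.1 CPM against 43.8 to 47.4 CPM (95% interval -0.19 to 0.14). Both genes had overlapping groups. ERN1, the IRE1 kinase and nuclease that splices XBP1 mRNA, had 28.2, 32.1 and 35.2 CPM in NC-shRNA and 33.4, 38.7 and 38.4 CPM in PRMT5-shRNA libraries. Its log2FC of 0.21 (unadjusted p = 0.093 in edgeR's test) was the highest of the 34, with overlapping groups, and was 0.13 without NC-shRNA replicate 1.
XBP1 had 127, 94.3 and 118 CPM in NC-shRNA and 90.7, 98.7 and 140 CPM in PRMT5-shRNA libraries, a log2FC of -0.04 (95% interval -0.47 to 0.39). The groups of XBP1 overlapped widely, and its splicing cannot be read from counts per gene. CREB3L2 (ENSG00000182158, chromosome 7, 137874979 to 138002067, minus strand), an ER-membrane factor related to ATF6 that drives secretory genes, had 236, 246 and 248 CPM in NC-shRNA and 237, 46.9 and 48.0 CPM in PRMT5-shRNA replicates 1, 2 and 3. Replicate 1 stayed at the NC-shRNA level while the other PRMT5-shRNA libraries were close to each other and far lower. Its log2FC of -1.14 (95% interval -2.61 to 0.33, adjusted p = 0.48 by edgeR) turned to -2.36 (adjusted p = 0.0011 by edgeR) without PRMT5-shRNA replicate 1, and to -0.78 without replicate 2 or without replicate 3. That small p-value came from leaving out the library that differed from the other PRMT5-shRNA libraries. Whether the authors' counting assigned the reads of CREB3L2 differently between libraries was not tested.

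**Figure D3:**
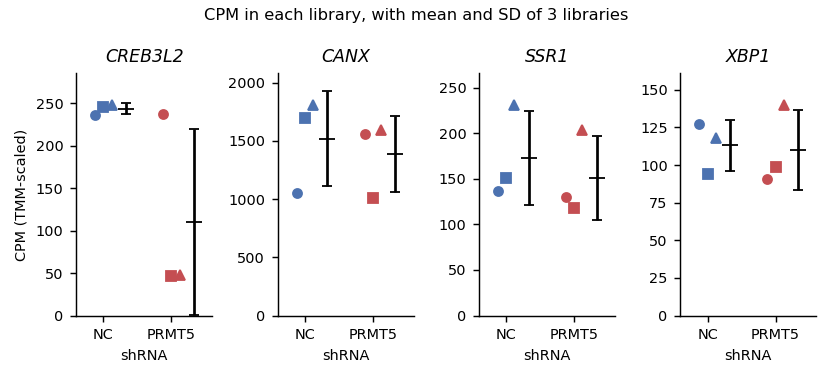
CPM (TMM-scaled, linear axis from 0) in each library of CREB3L2, CANX, SSR1 and XBP1, chosen after their values were seen, for libraries far apart within a group, with black bars for the mean and SD of the 3 libraries of a group; circle, square and triangle are replicates 1, 2 and 3. CREB3L2 is low in PRMT5-shRNA replicates 2 and 3 only, and the other genes overlap between the groups.

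ERAD draws misfolded proteins out of the ER for the proteasome. Of 8 members, 2 were lower at an unadjusted p under 0.05 (25.0%, beside 6.29% of all genes), and the median log2FC was -0.07. DERL2, a membrane protein of the exit channel, had 30.1, 36.7 and 27.1 CPM in NC-shRNA and 23.9, 25.0 and 23.9 CPM in PRMT5-shRNA libraries, with no overlap (log2FC -0.37, adjusted p = 0.30 by edgeR). Without NC-shRNA replicate 2, its highest library, the value was -0.24. Its relative DERL3 was measured on 81 to 241 counts per library, at 3.59, 3.10 and 2.32 CPM against 1.48, 2.34 and 2.05 CPM, and the groups overlapped (-0.61, adjusted p = 0.38 by edgeR). DERL1, the third of this family, stood at 72.4, 85.0 and 84.0 CPM against 72.2, 85.8 and 86.9 CPM, a log2FC of 0.02. The difference among the derlins was not tested.
HERPUD1, an ERAD adaptor and the member with both kinds of site in its promoter, had 73.2, 76.0 and 76.4 CPM in NC-shRNA and 75.7, 86.6 and 80.8 CPM in PRMT5-shRNA libraries. Its log2FC was 0.11 (95% interval -0.06 to 0.27), 0.06 without PRMT5-shRNA replicate 2, and PRMT5-shRNA replicate 1 lay within the NC-shRNA range. EDEM1, which picks out glycoproteins for degradation, had 58.6, 58.4 and 59.9 CPM against 65.5, 62.9 and 62.9 CPM. EDEM1 was the single member with all PRMT5-shRNA libraries above all NC-shRNA libraries, at a log2FC of 0.11 and an unadjusted p = 0.088 in edgeR's test. EDEM2 was at 93.4% (log2FC -0.10, and -0.05 without NC-shRNA replicate 1) and SEL1L, the scaffold of the ubiquitin ligase SYVN1, at 96.7% of NC-shRNA, both with overlapping groups. SYVN1 had 28.6, 45 and 27.5 CPM in NC-shRNA and 27.5, 25.6 and 27.9 CPM in PRMT5-shRNA libraries. Its log2FC of -0.32 rested on NC-shRNA replicate 2 and was -0.06 without it, and it overlaps FAU on the same strand and MRPL49 on the other.

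In the last group, SEC61B, a subunit of the channel through which proteins enter the ER, had 56.7, 50.1 and 46.9 CPM in NC-shRNA and 42.9, 42.3 and 41.1 CPM in PRMT5-shRNA libraries (log2FC -0.28, adjusted p = 0.29 by edgeR). SEC24D, a cargo-binding coat protein of vesicles that leave the ER, was also apart between the groups, with 82.1 to 88.6 CPM against 75.3 to 80.8 CPM (-0.13, unadjusted p = 0.075 in edgeR's test). Both genes were lower in every PRMT5-shRNA library. SSR1, a translocon-associated protein, had 136, 151 and 231 CPM in NC-shRNA and 130, 118 and 203 CPM in PRMT5-shRNA libraries, with replicate 3 highest in both groups. Its log2FC of -0.20 (95% interval -0.83 to 0.43) ranged from -0.48 without PRMT5-shRNA replicate 3 to 0.06 without NC-shRNA replicate 3. WFS1, an ER-membrane protein linked to calcium balance, had 10.2 to 13.6 CPM against 7.86 to 10.6 CPM and overlapped (-0.25, 95% interval -0.66 to 0.16), and its log2FC was -0.11 without NC-shRNA replicate 3 and -0.13 without PRMT5-shRNA replicate 2.

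**Figure D4:**
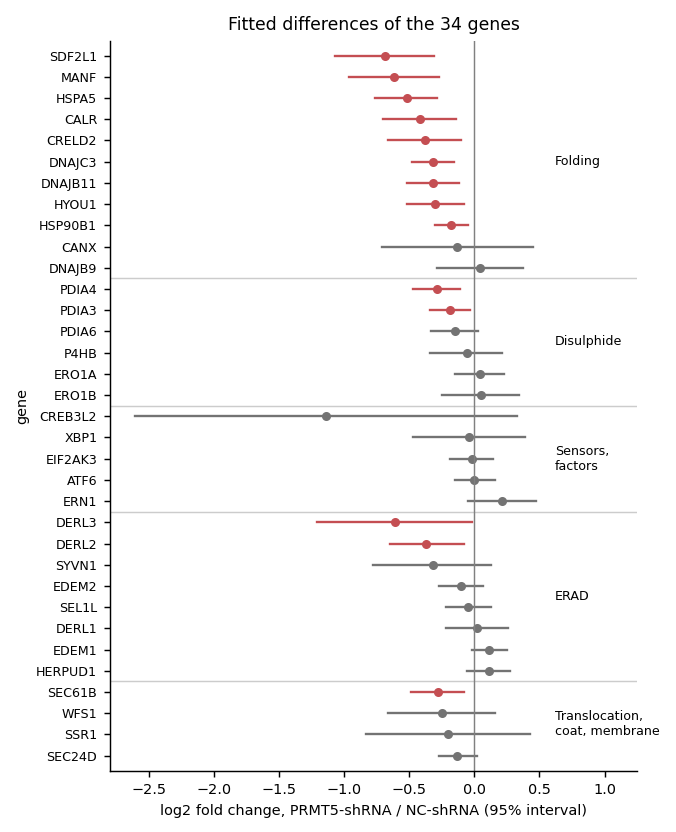
Fitted log2FC (PRMT5-shRNA over NC-shRNA, edgeR) of the 34 genes with its 95% interval, grouped by role; red marks an unadjusted p under 0.05. The 14 red genes all lie below 0, 9 of them in the folding group, and CREB3L2 has the widest interval.

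Levels between genes were compared as FPKM, the deposited value per transcript length and library size. HSPA5 was the most abundant member at 424 ± 49.2 FPKM in NC-shRNA and 308 ± 7.52 FPKM in PRMT5-shRNA cells (SD, n = 3 each), rank 56 of all genes in NC-shRNA. CALR followed at 359 ± 51.1 and 281 ± 12.7 FPKM, and its NC-shRNA libraries overlapped those of HSPA5. HSP90B1, CANX, PDIA3, PDIA4 and PDIA6 came next, each overlapping its neighbour in the NC-shRNA libraries, from 186 down to 145 FPKM. The sensors were far lower, with ATF6 at 13.3, EIF2AK3 at 7.11 and ERN1 at 2.45 FPKM in NC-shRNA, and DERL3 was the lowest member at 0.647 FPKM.
Summed over the 11 folding genes, the level was 1368, 1352 and 1235 FPKM in NC-shRNA and 1072, 1033 and 1083 FPKM in PRMT5-shRNA libraries, so the mean was at 80.6% of NC-shRNA. HSPA5 and CALR were the largest parts of this sum. The disulphide group summed to 92.4% and the ERAD group to 101% of their NC-shRNA means. The translocation, coat and membrane group summed to 88.1%, and the sensors and transcription factors to 86.5%. The last sum includes CREB3L2, at 23.2 FPKM in NC-shRNA and 11.0 FPKM in PRMT5-shRNA cells. All 34 genes together made up between 0.55% and 0.666% of the summed FPKM of a library. Across the 34 genes, the fitted log2FC had a Spearman correlation of -0.30 with the NC-shRNA FPKM. Its correlation was 0.31 with a length per gene derived from the counts and FPKM, which need not equal the transcript length. These points share the same 6 libraries and are described without a test. Over 15838 genes the correlation with this derived length was 0.15. With the derived length as an offset in the fit, 15 of the 34 genes had an unadjusted p under 0.05, all lower, and HSPA5 was at -0.51.

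Members with and without an ERSE or ERSE-II had similar medians, although a larger share of those with a motif was lower. The 11 members with either motif had a median log2FC of -0.18, and 6 of these 11 were lower at an unadjusted p under 0.05. The 19 members with a window but neither motif had a median of -0.20, and 6 of these 19 were lower. Both shares stand beside 6.29% of all genes, and the difference between these sets was not tested. Within the 11, HSPA5 and SDF2L1 stood at -0.52 and -0.69, whereas XBP1, whose site was shown with theirs, stood at -0.04. Of the 31 tested genes in the whole table with either motif, which include these 11, the median was -0.13, with 10 lower and 1 higher at an unadjusted p under 0.05, beside 6.29% and 6.54% of all genes.

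A wider list held 111 other ER pathway genes. All 111 were tested, 0 had an adjusted p under 0.05 by edgeR, and at an unadjusted p under 0.05 19 were lower (17.1%, beside 6.29% of all genes) and 2 were higher (1.8%, beside 6.54%), with a median log2FC of -0.09 beside 0.01 over all genes. The translocation group, which brings new proteins into the ER, held 9 of the lower genes among its 23 members (39.1%). The median of this group was -0.16. Its lowest p-values were those of SEC61G, the small channel subunit (-0.30, adjusted p = 0.24 by edgeR), SEC11C, a signal peptidase subunit (-0.36, adjusted p = 0.25 by edgeR), and SSR3, a translocon-associated protein (-0.19, adjusted p = 0.26 by edgeR). OSTC of the oligosaccharyltransferase (-0.28) and VCP, the segregase that pulls proteins out for degradation (-0.30), were the other 2 of the 5 lower genes with the smallest p. The 2 higher genes were ATF6B, a relative of ATF6 (0.21), and GANAB, a glucosidase that trims new glycans (0.21). Other groups had medians of -0.03 for regulators and for folding and disulphide factors, -0.07 for glycan processing and for ERAD, and -0.11 for coat and retrieval genes.

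The ATF4-CHOP targets had the opposite sign in the same libraries. Of 35 listed genes 34 were tested, and 2 were higher at an adjusted p under 0.05 by edgeR (beside 0.0493% of all genes). At an unadjusted p under 0.05, 24 were higher (70.6%, beside 6.54% of all genes). At that p 2 were lower (5.88%, close to the 6.29% of all genes), and the median log2FC was 0.29. DDIT3, which encodes CHOP and overlaps MARS on the other strand, rose from 17.0 ± 1.96 to 41.1 ± 1.17 CPM (SD, n = 3 each; log2FC 1.28, adjusted p = 0.020 by edgeR). NUPR1, a stress-induced nuclear protein, rose from 11.6 ± 0.705 to 24.6 ± 2.65 CPM (1.09, adjusted p = 0.047 by edgeR). The next smallest p-values were those of the serine synthesis enzyme PSAT1 (0.34), the stress protein SESN2 (0.50) and the seryl-tRNA synthetase SARS1 (0.31), with edgeR adjusted p-values of 0.11, 0.11 and 0.13. ATF5 (-0.68) and CEBPB (-0.15) were the 2 lower genes. ATF4 mRNA itself was at 502 ± 6.75 and 520 ± 13.6 CPM (0.05, adjusted p = 0.69 by edgeR), and ATF4 is known to be set largely by translation. That these targets were higher was already known when the list was written, so the list is no independent evidence of its direction.
Cytosolic heat shock chaperones, the counterparts of the ER chaperones outside the ER, lay on the same side as the ER folding genes. Of 29 genes, all tested, 0 had an adjusted p under 0.05 by edgeR, and 19 were lower (65.5%, beside 6.29% of all genes) and 0 higher at an unadjusted p under 0.05. Their median was -0.32, the same as that of the 11 ER folding genes. HSP90AA1, the inducible cytosolic HSP90 (-0.70), BAG2 (-0.55), HSPH1 (-0.53), HSP90AB1 (-0.45) and AHSA1 (-0.54) had the smallest p-values, with edgeR adjusted p-values from 0.069 to 0.17. The lower level of heat shock genes was likewise known beforehand. Differences between the lists were not tested.

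**Figure D5:**
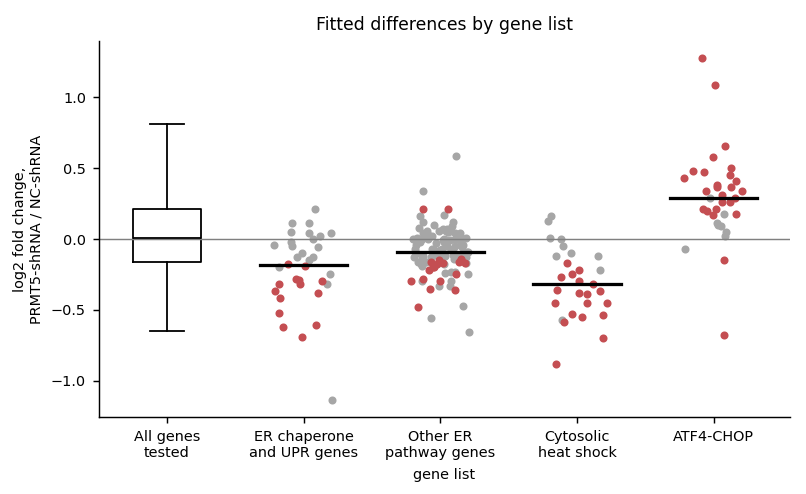
Fitted log2FC (PRMT5-shRNA over NC-shRNA, edgeR) for all genes tested (box, median and quartiles, whiskers at the 5th and 95th percentiles) and for each gene of 4 lists (points, red for an unadjusted p under 0.05, black bar for the median). The medians are -0.18 for the 34 ER genes, -0.09 for other ER pathway genes, -0.32 for cytosolic heat shock genes and 0.29 for ATF4-CHOP genes.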

How the data were processed

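RNA-seq of 6 NCI-H460 libraries was analysed, 3 NC-shRNA and 3 PRMT5-shRNA, described by the authors as biological replicates. Per the labels, the authors used cutadapt 1.9, HISAT2 2.0.4 and StringTie 1.3.4d on GRCh38 (the methods name GRCm38, a mouse assembly). The authors deposited an estimated count per gene, not normalized, and FPKM values, normalized by the authors for length and library size. The libraries were made with a stranded kit, and the counting of overlapping genes is not given in the sources used here. The estimated counts were whole numbers, so rounding changed none. In each library 1214 to 1319 genes had exactly 4 counts while at most 546 had exactly 3 and at most 308 exactly 5, so a count is not 1 fragment.

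Counts were scaled by TMM (edgeR 4.0.16, R 4.3.3) and low genes were removed by filterByExpr, leaving 20295 of 58825. The comparison used the quasi-likelihood test of edgeR, with Benjamini-Hochberg adjusted p-values over all genes tested. Intervals of log2 fold changes are 95% intervals from that fit. Fits were run on simulated counts whose planted changes were larger than most differences described here. Their power for smaller differences was therefore not checked. With 3 libraries against 3, the exact two-sided permutation test of a single gene cannot go below p = 0.10, the value for PRMT5 and for every gene whose groups do not overlap. Gene positions and overlaps came from GENCODE release 29.

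The members and lists were chosen with earlier results of these data known. All 34 members are named. From the other ER, ATF4-CHOP and heat shock lists the genes with an adjusted p under 0.05 are named, plus ATF4. Up to 5 in each direction with the smallest unadjusted p under 0.05 are also named. The lowest chi-square per degree of freedom between any 2 libraries was 41.3, so no library was a copy. Alternatives were DESeq2 1.42.0, other scalings and filters, division of counts by 4, a length offset, limma 3.58.1 on log2(FPKM + 1) or log2(FPKM + 0.1) with a minimum mean FPKM of 0.5 or none, a linear model per gene, a block for the replicate number, and leaving out single libraries.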

Additional observations from a re-analysis of the deposited data

How the results depend on the processing

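Over 18 alternatives the median log2 fold change of the 34 ER genes stayed between -0.25 and -0.12, and 23 of the 34 genes, including all 14 with an unadjusted p under 0.05, kept their sign. The median was -0.13 with total counts only and -0.12 with limma on log2(FPKM + 1), with or without a filter, with limma on log2(FPKM + 0.1) and with the linear model per gene. The median over all genes moved too, to 0.06 with total counts only, against 0.01 in the fit used above. It was 0.04 to 0.05 with filtered limma and the linear model, and 0.01 with unfiltered limma. Leaving out 1 library gave -0.25 to -0.16, the former without PRMT5-shRNA replicate 3. The number of ER genes at an adjusted p under 0.05 was 4 with DESeq2 and 1, CREB3L2, without PRMT5-shRNA replicate 1. Leaving out 1 library gave 0 to 1. The number at an unadjusted p under 0.05 was 9 with the linear model per gene (8 lower, 1 higher) and 11 to 15 with 1 library left out.

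The ATF4-CHOP median was 0.34 with total counts only, 0.35 with limma on log2(FPKM + 0.1), and 0.24 to 0.33 with 1 library left out. In the first 2 of these fits the median over all genes was 0.06 and 0.05. PRMT5 was no longer called under the replicate block (-1.62, adjusted p = 0.14) or the linear model per gene (-1.49, adjusted p = 0.091), and was at -1.66 to -1.54 with 1 library left out. Genes called over the whole table were 530 with DESeq2 (303 higher, 227 lower), 22 with the length offset, 5 with unfiltered limma, 2 with the linear model, and 8 to 25 with 1 library left out, against 14 (10 higher, 4 lower). With the replicate block 0 genes were called in edgeR, with 2382 at an unadjusted p under 0.05, and 16 of the ER genes at that p, 15 of them lower. Same-numbered libraries deviated from their group means with correlations of 0.00122, -0.0388 and 0.064, so no strong shared effect of the replicate number was seen. With 3 libraries per group these correlations cannot tell whether same-numbered libraries were prepared together.

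Signs turned for 11 members, none with an unadjusted p under 0.05, of which SSR1 (-0.20) and CANX (-0.13) were the farthest from 0. ATF6 (0.004) was at -0.002 with RLE size factors and with DESeq2 and -0.03 with the length offset, where DERL1 was at -0.01. With total counts only EIF2AK3 was at 0.03, XBP1 at 0.01 and SEL1L at 0.001. On FPKM values EIF2AK3 was at 0.03 to 0.04, XBP1 at 0.005 and SEL1L at 0.01. With 1 library left out, the ranges were -0.08 to 0.11 for DNAJB9, -0.34 to 0.05 for CANX, -0.17 to 0.02 for P4HB, -0.01 to 0.12 for ERO1A, -0.04 to 0.13 for ERO1B, -0.05 to 0.03 for ATF6, -0.06 to 0.01 for EIF2AK3, -0.25 to 0.08 for XBP1, -0.08 to 0.02 for SEL1L, -0.05 to 0.10 for DERL1 and -0.48 to 0.06 for SSR1. The cause of these changes was not tested. DERL3 was measured on 81 to 241 counts and was at -0.20 with limma on log2(FPKM + 1).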
